A study of Mus musculus with 6 samples.

Results

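Messenger RNA of 8 genes tied to Alzheimer disease and to the microtubule protein tau was followed in the mouse hippocampus. The genes were App, Aplp1, Bace1, Psen2, Sorl1, Apoe, Clu and Mapt. They were taken by name, as the probes whose gene symbol was exactly one of these 8, and each gene had a single such probe among the 14996 probes (14860 genes) that carried 1 symbol. The tissue came from 3 wildtype mice and 3 HGPS transgenic mice, all 63 weeks old. HGPS commonly stands for Hutchinson-Gilford progeria syndrome, in which a mutant lamin A causes premature ageing. Total RNA of the dissected hippocampus was hybridised to 1 Affymetrix array per animal. Strain, sex, the promoter of the transgene and the number of lines were all not given in the sources used here. Of interest was how the transgenic hippocampus differed from the wildtype one in old mice.

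The amyloid precursor protein App is a membrane protein of neurons that is cut by a series of proteases. A first cut by the beta-secretase Bace1 and a second by gamma-secretase, whose catalytic subunit is a presenilin such as Psen2, release the amyloid-beta peptide that forms the plaques of Alzheimer disease. The sorting receptor Sorl1 steers App through endosomes away from these proteases. Apolipoprotein E (Apoe) and clusterin (Clu) are secreted carriers of lipid and chaperones made largely by astrocytes, and both genes are risk loci of the disease in humans. Tau, the product of Mapt, binds axonal microtubules and forms the neurofibrillary tangles of the disease when it is heavily phosphorylated. Wildtype mice do not form plaques or tangles.

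The values are log2 expression after RMA. Array medians lay between 7.44 and 7.47, and the 15 pairs of arrays correlated across the tested probes at an r of 0.987 to 0.996. Wildtype replicates 2 and 3 stood apart from the other 4 arrays. The mean log2 level of the Y-linked genes Eif2s3y and Kdm5d was 8.41 and 8.45 in these animals, against 4.63 in wildtype replicate 1 and a range of 4.67 to 4.78 over the transgenic arrays, so genotype cannot be told apart from this imbalance. The same 2 arrays had the lowest levels of meningeal and endothelial markers. Differences are therefore also given without them where they bear on a result, which leaves wildtype replicate 1 as the single wildtype animal and allows no test.

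Of 13 measured genes that mark hippocampal subfields, 2, Tdo2 and Spink8, lay among the dimmest 33.3% of probes. There were 3 of the 13 with an unadjusted p under 0.05, all lower in the transgenic group, against 4.8% of all probes, and none passed adjustment. These were Bok, Tdo2 and Spink8, named after their values were seen, with log2 differences of -0.40, -0.42 and -0.30 (limma adjusted p = 0.431, 0.431 and 0.432). Without wildtype replicates 2 and 3 the differences were -0.25, -0.57 and -0.29, and their part in the values of the 8 genes was not tested.

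None of the 8 genes differed between the groups at a false discovery rate of 10% in limma, the rate named for the series, and the lowest adjusted p was 0.461, for Apoe. Of all tested probes 0.0467% passed that rate and 0.0% passed it together with a 2-fold difference. Apoe alone among the 8 had an unadjusted p under 0.05, against 10.6% of all probes. In 0 of the 8 genes did the 3 transgenic animals lie wholly to one side of the 3 wildtype animals, which occurred in 17.7% of all probes. The median log2 difference of the 8 genes was 0.01, and that of all probes -0.00016. All 8 lay above the dimmest 33.3% of probes. In whole tissue, fewer cells of a type and less RNA per cell cannot be told apart.

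**Figure D1:**
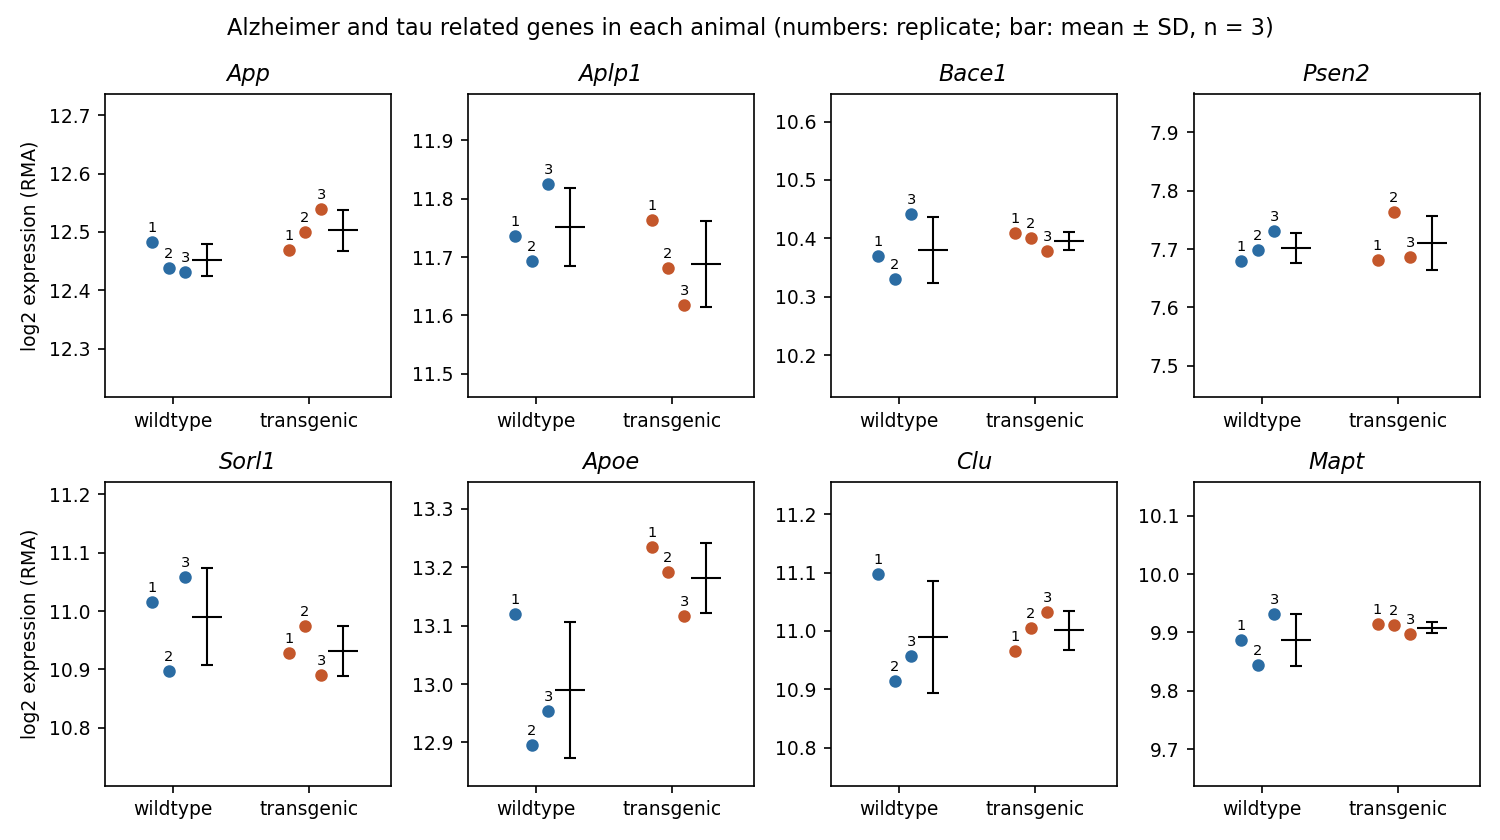
Log2 expression of the 8 genes in each animal, 1 panel per gene with an axis of the same length in each. Blue points are wildtype and orange points transgenic animals, numbered by replicate, and the black bar is the group mean ± SD (n = 3). The groups overlap in every panel, and in App, Apoe and Clu wildtype replicates 2 and 3 lie below the other 4 animals.

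App messenger RNA was measured at a log2 level of 12.48, 12.44 and 12.43 in wildtype replicates 1 to 3 and at 12.47, 12.50 and 12.54 in the transgenic replicates. Wildtype replicates 2 and 3 were the lowest arrays. The lowest transgenic animal lay below the highest wildtype animal, so the groups overlapped. Its log2 difference, transgenic minus wildtype, was 0.05 ± 0.06 (SE, n = 3 per group, limma adjusted p = 0.744), and 0.02 without wildtype replicates 2 and 3. The 95% interval, from -0.08 to 0.18, corresponds to 94.6% to 114% of the wildtype level.

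Aplp1 encodes a neuronal paralog of App that lacks the amyloid-beta sequence. It had 11.74, 11.69 and 11.83 in wildtype and 11.76, 11.68 and 11.62 in transgenic animals. Transgenic replicate 3 was the lowest and wildtype replicate 3 the highest, with the other 4 animals between them. The log2 difference was -0.06 ± 0.07 (95% interval -0.22 to 0.10, limma adjusted p = 0.738), and -0.05 without wildtype replicates 2 and 3. The log2 ratio of App to Aplp1 within an array averaged 0.70 ± 0.08 in wildtype and 0.82 ± 0.11 in transgenic animals (SD, n = 3), which overlapped (two-sided exact permutation p = 0.3, 0.6 after adjustment over 4 such ratios).

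Among the proteases that release amyloid-beta, Bace1 had 10.37, 10.33 and 10.44 in wildtype and 10.41, 10.40 and 10.38 in transgenic animals. All 3 transgenic values fell inside the wildtype range. The log2 difference was 0.02 ± 0.06 (95% interval -0.12 to 0.15, limma adjusted p = 0.937), and 0.03 without wildtype replicates 2 and 3. Psen2 had 7.68, 7.70 and 7.73 in wildtype and 7.68, 7.76 and 7.69 in transgenic animals. Its difference of 0.01 ± 0.06 (95% interval -0.13 to 0.14, limma adjusted p = 0.965) was the smallest of the 8, and transgenic replicate 2 was the highest animal. It was also 0.03 without those wildtype animals. The log2 ratio of Bace1 to Psen2 averaged 2.68 ± 0.04 in wildtype and 2.69 ± 0.05 in transgenic animals (two-sided exact permutation p = 0.7, n = 3 per group, 0.7 after adjustment).

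Sorl1 had 11.02, 10.90 and 11.06 in wildtype and 10.93, 10.97 and 10.89 in transgenic animals. Wildtype replicate 2 sat with the transgenic animals and the other wildtype animals above them. Its log2 difference of -0.06 ± 0.07 (95% interval -0.21 to 0.10, limma adjusted p = 0.750) was -0.08 without wildtype replicates 2 and 3.

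Mapt had 9.89, 9.84 and 9.93 in wildtype and 9.91, 9.91 and 9.90 in transgenic animals. The transgenic animals were nearly alike, with an SD of 0.01 against 0.04 in wildtype, and lay within the wildtype range. The difference was 0.02 ± 0.06 (95% interval -0.11 to 0.15, limma adjusted p = 0.906), and 0.02 without wildtype replicates 2 and 3. Relative to App, Mapt averaged -2.56 ± 0.06 in wildtype and -2.59 ± 0.04 in transgenic animals on the log2 scale (two-sided exact permutation p = 0.6, n = 3 per group, 0.7 after adjustment).

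Apoe had 13.12, 12.90 and 12.95 in wildtype and 13.24, 13.19 and 13.12 in transgenic animals. The lowest 2 arrays were wildtype replicates 2 and 3, while wildtype replicate 1 lay just above transgenic replicate 3. The log2 difference of 0.19 ± 0.08 (SE, n = 3 per group) puts the transgenic mean at 114% of wildtype, with a 95% interval from 101% to 129%. It had an unadjusted p of 0.0412 in limma and did not pass over all probes (adjusted p = 0.461), and 8.93% of the probes had a smaller p. The two-sided exact permutation p was 0.2. Against wildtype replicate 1 alone the difference was 0.06, and with that Y-linked signal as a covariate it was 0.07 ± 0.09 (limma unadjusted p = 0.494).

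Clu had 11.10, 10.92 and 10.96 in wildtype and 10.97, 11.01 and 11.03 in transgenic animals. Here wildtype replicate 1 was the highest of all 6 arrays and wildtype replicates 2 and 3 the lowest. The difference of 0.01 ± 0.07 (95% interval -0.15 to 0.17, limma adjusted p = 0.962) became -0.10 against wildtype replicate 1 alone and -0.09 with that covariate (limma unadjusted p = 0.315). Its sign also turned without transgenic replicate 3 (-0.0046) and with arrays centred on their medians (-0.0125).

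The proportion of the 2 apolipoprotein genes to each other separated the groups. The log2 ratio of Clu to Apoe within an array was -2.02, -1.98 and -2.00 in wildtype and -2.27, -2.19 and -2.08 in transgenic animals. Every transgenic value was below the lowest wildtype value, which was that of wildtype replicate 1, and the wildtype values were close together (SD 0.02, against 0.09 in transgenic animals). The mean difference of -0.18 is a ratio at 88.3% of wildtype. Its two-sided exact permutation p of 0.1 is the smallest that 3 against 3 can give, and it was 0.4 after adjustment over the 4 ratios. The difference was -0.16 without wildtype replicates 2 and 3, and between -0.23 and -0.14 when any 1 array was left out. The ratio to Apoe also separated the groups for 30.6% of all other probes, so separation of this kind was frequent when Apoe was the reference.

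**Figure D2:**
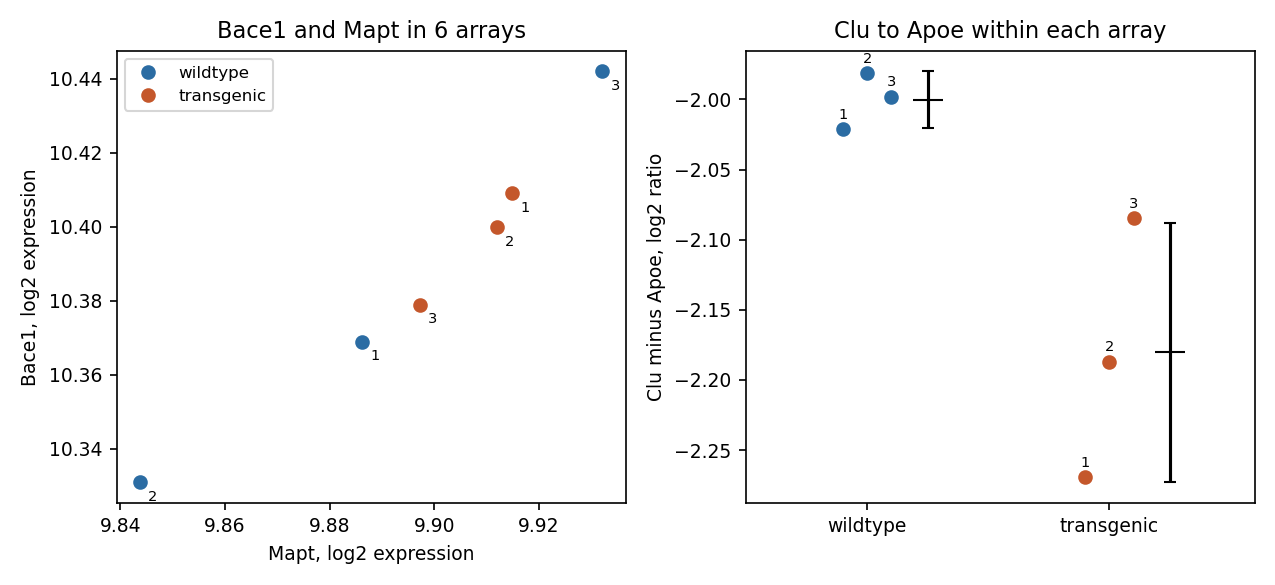
Left, log2 expression of Bace1 against Mapt in the 6 arrays, blue for wildtype and orange for transgenic, numbered by replicate. Right, log2 ratio of Clu to Apoe in each array with the group mean ± SD (n = 3). The left points lie close to a rising line (r of 0.975), and on the right every transgenic animal lies below every wildtype animal.

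The 95% intervals give the sizes of change in array signal that the 6 arrays leave possible in the fit without a covariate. Differences of very bright probes can be compressed, and Apoe and App were the brightest of the 8. In 7 of the 8 genes the interval lay within 1.2-fold in either direction, as it did for 44.4% of all probes. The exception was Apoe, whose interval reached 1.29-fold. The signs of the Bace1, Psen2, Clu and Mapt differences turned when arrays were centred on their medians or quantile normalized. For the other 7 the outer limit lay between 1.10-fold for Psen2 and 1.17-fold for Aplp1. The SD among animals of a group was low for App, Mapt and Psen2, at 0.03, 0.03 and 0.04 on the log2 scale, while Apoe had 0.09. Among probes within 0.5 of the same mean level, these values stood at the percentiles 7.06, 5.55, 4.30 and 79.2. The numbers of such probes were unequal, at 85, 1765, 3068 and 24, so the percentile of Apoe rests on few.

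**Figure D3:**
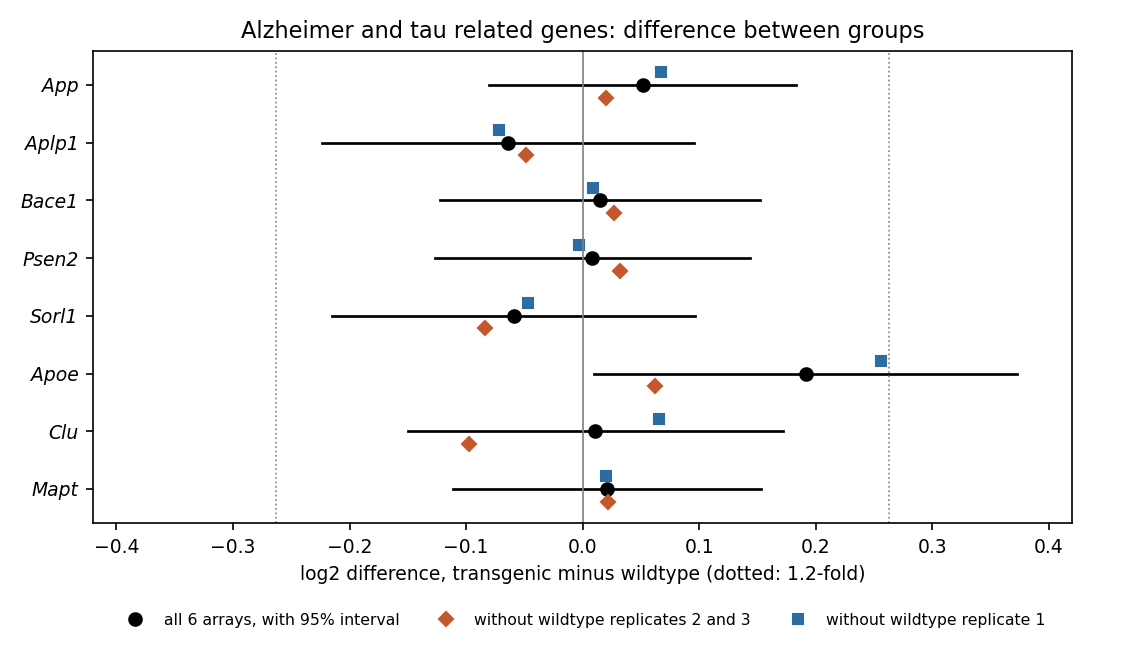
Log2 difference between transgenic and wildtype groups for the 8 genes. Black points are the fit of all 6 arrays with its 95% interval, blue squares leave out wildtype replicate 1 and orange diamonds leave out wildtype replicates 2 and 3. The dotted lines mark 1.2-fold, which Apoe's interval crosses, and the squares and diamonds lie farthest apart for Apoe and Clu.

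Bace1 and Mapt followed each other across the 6 animals. Wildtype replicate 2 was lowest and wildtype replicate 3 highest in both genes, with the transgenic animals between them in the same order. Pearson's r was 0.975 (two-sided exact permutation p = 0.0014, the smallest that 6 animals can give, and 0.0389 after adjustment over the 28 pairs of the 8 genes). Spearman's rho was 1 (p = 0.00278 in the same exact test, 0.0778 after adjustment). Correlations between the 8 genes had been planned as a description without a p, so these tests lie outside the plan. After removal of the 2 animals farthest from the median, r was 0.988, and with the group means subtracted it was 0.986. It stayed between 0.962 and 0.992 after renormalisation of the arrays or with any 1 animal left out. The whole range over which the genes moved together was 0.11 for Bace1 and 0.09 for Mapt on the log2 scale, and values of 1 array share its normalization. Of 9917 brighter genes, 97 had an r of at least 0.9 with Bace1 and 128 with Mapt. None of the other 27 pairs passed. App and Aplp1, next in order, had an r of -0.78 (exact permutation p = 0.0639, 0.783 after adjustment) and a rho of -0.83 (p = 0.0583, 0.817 after adjustment), and r was -0.04 without the 2 farthest animals.

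Genes whose pattern over the 6 arrays was most like each of the 8 were sought among 9917 brighter genes, as a description over 6 points that share their arrays. Apoe was most like Tgm2, a transglutaminase (r of 0.999), Ptprb, a receptor phosphatase of vascular endothelium (0.993), and Slc22a8, an organic anion transporter of brain barriers (0.993). All 3 shared the low level of wildtype replicates 2 and 3, with log2 differences of 0.56, 0.36 and 0.65. The closest genes to Clu were Mfsd1, Hsd17b12 and Ndufa2 (0.982, 0.978 and 0.976). Those nearest to App were Dedd, Dram2 and Wdr61 (0.999, 0.998 and 0.995), and to Aplp1 Cdon, Snx7 and Rfesd (0.972, 0.970 and 0.967). Bace1 was most like Dgcr6, Eps15l1 and Tst (0.996, 0.995 and 0.986), and Mapt like Atxn7, Exog and Zswim8 (0.993, 0.992 and 0.983). For Psen2 these were Inpp4a, St8sia1 and Smarcd1 (0.991, 0.987 and 0.983) and for Sorl1 Matn2, Exoc7 and Rtel1 (0.990, 0.988 and 0.987). An r of at least 0.9 over the 6 arrays was reached by 368 genes for App, 308 for Apoe and between 37 and 128 for each of the other 6. Such an r was thus not particular to the genes named here.

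Marker genes of the cells that make Apoe and Clu are given beside them. Relative to the mean of the 6 arrays, Apoe's pattern had wildtype replicates 2 and 3 lowest. The mean of 14 astrocyte genes was -0.0025, -0.11 and -0.02 in wildtype and -0.02, 0.05 and 0.09 in transgenic animals. Of these 14 genes 9 were higher and 5 lower in the transgenic group. Of the 14, 3 (21.4%) had an unadjusted p under 0.05, all higher, against 5.81% of all probes. These 3, Ntsr2, Sox9 and Gjb6, differed by 0.23, 0.19 and 0.30. Without wildtype replicates 2 and 3 they differed by 0.17, 0.23 and -0.0015. The 15 microglial genes stood at 0.04, -0.11 and 0.01 in wildtype and -0.01, 0.04 and 0.04 in transgenic animals. Of these 8 were higher and 7 lower, and 2 (13.3%) were higher with an unadjusted p under 0.05.

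Larger shifts were seen in genes of the brain's coverings and vessels. All 17 meningeal and fibroblast genes were higher in the transgenic group, and their mean was 0.24, -0.62 and -0.67 in wildtype and 0.38, 0.41 and 0.26 in transgenic animals. Against wildtype replicate 1 alone 13 of the 17 were higher. All 18 endothelial genes were higher, at 0.01, -0.23 and -0.12 in wildtype and 0.16, 0.10 and 0.08 in transgenic animals, and 14 of the 18 were higher against wildtype replicate 1 alone. The 11 genes of choroid plexus and ependyma stood at 0.45, -0.45 and -0.79 in wildtype and 0.44, -0.20 and 0.55 in transgenic animals. All 11 were higher with all arrays, but only 2 of the 11 against wildtype replicate 1 alone. Their median log2 difference was 0.58 with all arrays and -0.21 against that animal. Wildtype replicates 2 and 3 were thus the lowest arrays in these 3 lists as they were for App, Apoe and Clu. The mean log2 level of the meningeal list ranged from 7.72 to 8.63 in wildtype and from 8.65 to 8.81 in transgenic animals, with 3 of its 17 genes in the dimmest 33.3% of probes. The part of these cells in the Apoe and Clu values was not tested. The 17 neuronal genes ranged from 11.34 to 11.39 in wildtype and from 11.31 to 11.38 in transgenic animals, and the 15 oligodendrocyte genes from 9.57 to 9.73 and from 9.58 to 9.84. Higher with an unadjusted p under 0.05 were 13 of 17 meningeal (76.5%), 8 of 18 endothelial (44.4%) and 1 of 11 choroid genes (9.09%). The share of all probes was 5.81%. Lower with such a p were 2 of 17 neuronal (11.8%) and 1 of 15 oligodendrocyte genes (6.67%), against 4.8% of all probes. None of these genes passed a false discovery rate of 10%.

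**Figure D4:**
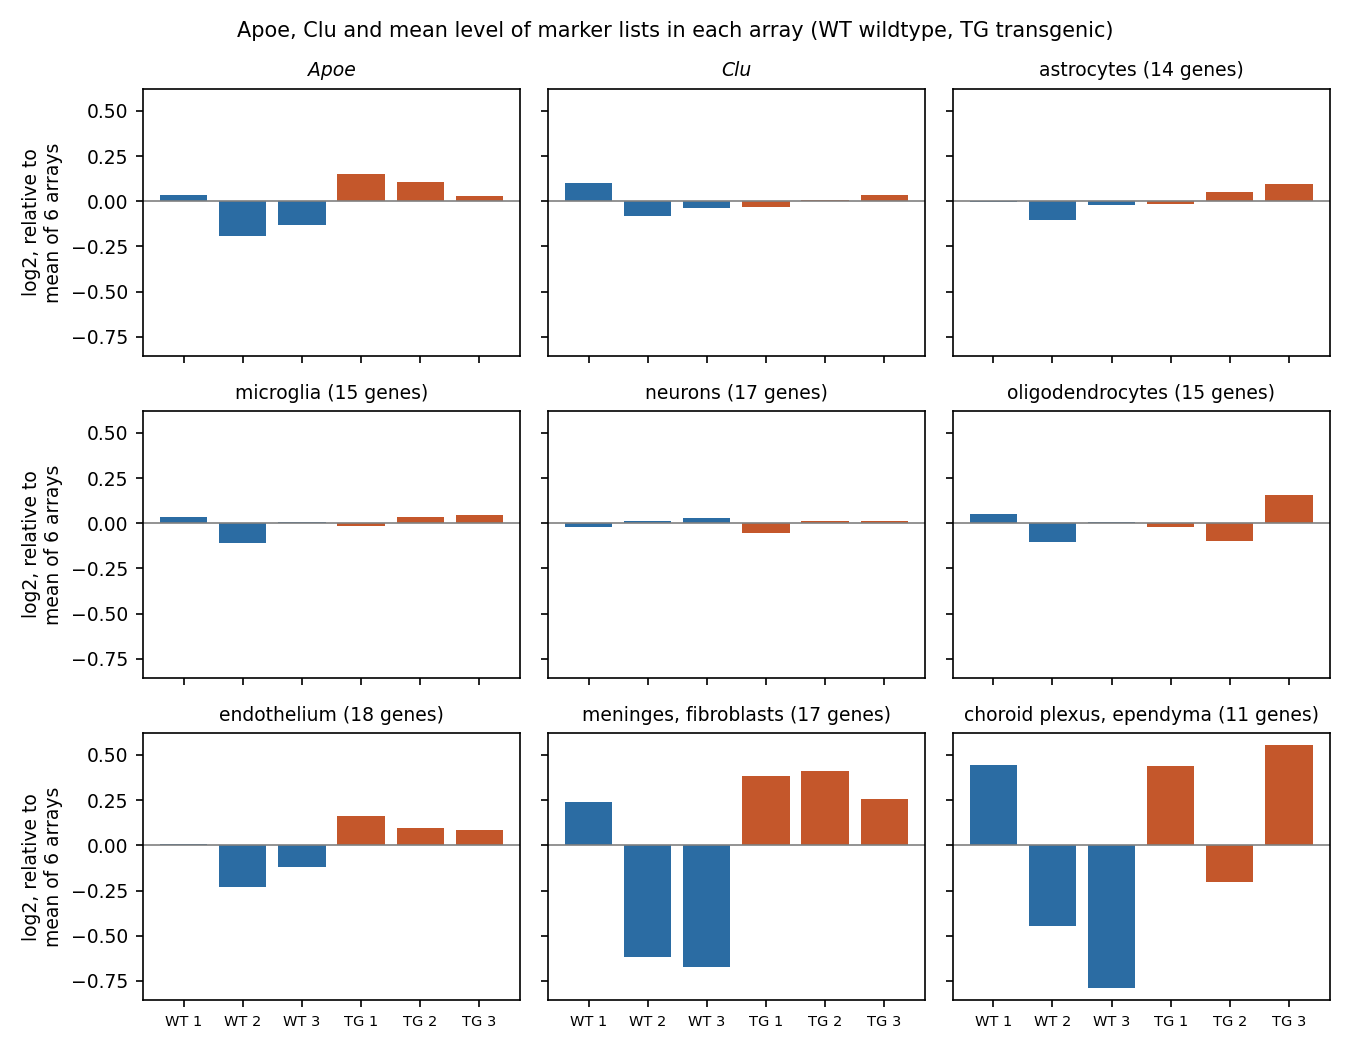
Level of Apoe, of Clu and of 7 marker lists (mean over the list's measured genes) in each array, on the log2 scale relative to the mean of the 6 arrays, blue for wildtype and orange for transgenic. Bars start at 0 and all panels share an axis. The meningeal and choroid lists swing most, from -0.67 to 0.41 and from -0.79 to 0.55, and wildtype replicates 2 and 3 are low in both and in Apoe.

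The wider amyloid and tau pathways were read from 9 lists with 168 measured genes, 160 of them outside the 8. None of the 160 passed a false discovery rate of 10% in limma (lowest adjusted p = 0.400), while 11 were higher and 1 lower with an unadjusted p under 0.05. That is 7.5% of them, against 10.6% of all probes. By direction it is 6.88% higher and 0.63% lower, against 5.81% and 4.8% of all probes. Their median log2 difference was 0.02, and 0.03 without wildtype replicates 2 and 3.

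Among 16 secretases and their subunits none had an unadjusted p under 0.05, against 10.6% of all probes, and the median log2 difference was 0.01. That median was -0.029 with the Y-linked covariate and -0.031 without wildtype replicates 2 and 3. The count was 1 with array weights, with the replicate block, and without transgenic replicate 2 or wildtype replicate 1. Aph1c, a subunit of gamma-secretase, differed by 0.15 ± 0.08 (SE, limma adjusted p = 0.534), or 0.03 without wildtype replicates 2 and 3. Gsap, the gamma-secretase activating protein, differed by -0.14 ± 0.07 (limma adjusted p = 0.539), or -0.11 without them. Of 17 genes of the App family and its adaptors 2 (11.8%) were higher with such a p, against 5.81% of all probes. The count fell to 0 with the Y-linked covariate, with all probes tested together, with a further quantile normalization and with the replicate block. It was also 0 without transgenic replicate 2 or 3 or wildtype replicate 2. With trend and robust estimation, or with the filter on dim probes, it was 3. Apbb3, which binds the cytoplasmic tail of App, had 8.52, 8.46 and 8.54 in wildtype and 8.65, 8.63 and 8.64 in transgenic animals (difference 0.14 ± 0.06, limma adjusted p = 0.465). Its groups did not overlap, as in 17.7% of all probes. The other was Itm2a, also an endothelial marker, at 0.31 ± 0.12, and at 0.11 without wildtype replicates 2 and 3.

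Degradation and clearance of amyloid-beta were covered by 17 genes with a median of 0.07, of which 1 was higher and 1 lower with an unadjusted p under 0.05. That is 11.8% of the list, against 10.6% of all probes. The median was -0.0012 without wildtype replicates 2 and 3, 0.0041 with the Y-linked covariate and 0.03 without transgenic replicate 3. Mme, which encodes the amyloid-beta degrading peptidase neprilysin, had 6.58, 6.71 and 6.51 in wildtype and 6.45, 6.37 and 6.32 in transgenic animals. Every transgenic animal was below every wildtype animal, and the groups lay apart in one direction or the other in 17.7% of all probes. The difference of -0.22 ± 0.07 did not pass (limma adjusted p = 0.432), and against wildtype replicate 1 alone it was -0.20. Plau, the urokinase plasminogen activator, differed by 0.16 ± 0.06 (limma adjusted p = 0.439). Both genes lay among the dimmest 33.3% of probes.

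The list of apolipoproteins, lipid transporters and receptors held 17 genes with a median of 0.06, and 4 of them (23.5%) were higher with an unadjusted p under 0.05, against 5.81% of all probes. That count was 1 with the Y-linked covariate, and 2 without wildtype replicate 2 or 3 or transgenic replicate 1 or 2. Apoe was 1 of the 4. Pltp, the phospholipid transfer protein, had 10.28, 9.68 and 9.77 in wildtype and 10.63, 10.36 and 10.49 in transgenic animals, and its difference of 0.58 ± 0.16 (limma adjusted p = 0.431) was 0.21 without wildtype replicates 2 and 3. Apod, a lipocalin of glia and meninges, had 12.63, 12.20 and 11.998 against 12.80, 12.80 and 12.63, and its difference of 0.47 ± 0.15 was 0.11 without them. In Rxra, the nuclear receptor that partners the liver X receptors, wildtype replicate 1 was instead the lowest array, and the difference was 0.19 ± 0.06 with all arrays and 0.23 without those animals.

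For endosomal sorting 19 genes were measured, the median was 0.01 and 1 had an unadjusted p under 0.05 (5.26%, against 10.6% of all probes). This was Gga2, an adaptor of transport between the Golgi network and endosomes, at 8.42, 8.36 and 8.37 in wildtype and 8.72, 8.64 and 8.57 in transgenic animals. The groups did not overlap, as in 17.7% of all probes, and the difference of 0.26 ± 0.06 did not pass (limma adjusted p = 0.431). It was 0.22 without wildtype replicates 2 and 3.

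Around tau, 12 microtubule-associated and related genes had a median of -0.02 and none had an unadjusted p under 0.05. Map2, the dendritic relative of tau, differed by -0.11 ± 0.06 and Map1b by -0.09 ± 0.06 (limma adjusted p = 0.559 and 0.576). Without wildtype replicates 2 and 3 the differences were -0.04 and -0.06. Of 24 tau kinases 1 (4.17%) had an unadjusted p under 0.05, against 10.6% of all probes, with a median of -0.02 for the list. That median was 0.03 without wildtype replicates 2 and 3. Nuak1, an AMPK-related kinase that phosphorylates tau, had 10.30, 10.26 and 10.20 in wildtype and 10.56, 10.54 and 10.62 in transgenic animals. It was named for having the smallest p of its list, and groups did not overlap in 17.7% of all probes. The groups were apart by more than the spread within either, yet the difference of 0.32 ± 0.06 did not pass (limma adjusted p = 0.400). It was 0.27 against wildtype replicate 1 alone. Cdk5, a proline-directed tau kinase, differed by 0.13 ± 0.06 (limma adjusted p = 0.474).

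Of 25 genes of tau phosphatases, chaperones and turnover 1 (4.0%) had an unadjusted p under 0.05, against 10.6% of all probes. The median of the list was 0.01. Stub1, the ubiquitin ligase that acts with chaperones on tau, had 9.27, 9.25 and 9.23 in wildtype and 9.34, 9.38 and 9.48 in transgenic animals (difference 0.15 ± 0.06, limma adjusted p = 0.465). The 22 genes of other risk loci had a median of 0.06, and 2 (9.09%) were higher with such a p, against 5.81% of all probes. Cnn2, a calponin, differed by 0.45 ± 0.16 with all arrays and by 0.12 without wildtype replicates 2 and 3. The metalloprotease gene Adamts1 differed by 0.19 ± 0.06 and by 0.11 without them.

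**Figure D5:**
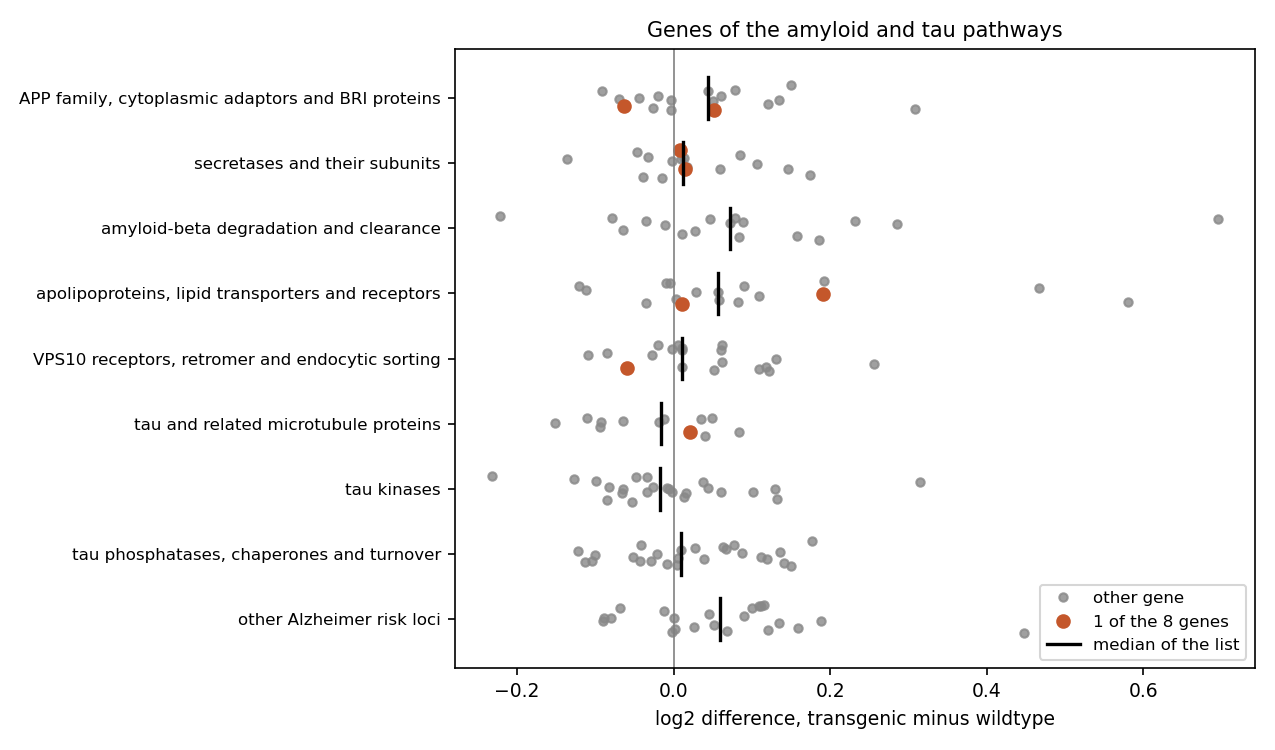
Log2 difference between transgenic and wildtype groups for the measured genes of the 9 lists, 1 point per gene, with the 8 genes in orange and a black bar at each list's median. Medians lie between -0.02 and 0.07, and 7 of the 8 genes lie between -0.06 and 0.05, with Apoe at 0.19.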

How the data were processed

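Hippocampal RNA of 6 mice was measured on 1 array each. The authors deposited log2 expression per probe made with RMA, and named the build mm8, per the submitters' processing notes. Its version and any filter: not given in the sources used here. RMA corrects background, normalizes between arrays and summarises probes, and differences of dim or very bright probes can be compressed. Depth does not apply, and precision is limited by the number of arrays. The platform annotation held by GEO can be old and gave 1 symbol for 14996 of 23332 probes, several for 1019 and none for 7317. The RefSeq table of GRCm38.p6 held all 8 genes by gene ID with 0 names changed.

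Transgenic was set against wildtype in limma 3.58.1 under R 4.3.3 (eBayes, no covariate, Benjamini-Hochberg over the 14996 probes, two-sided), checked on simulated data. The exact tests permuted animals. For genes with several probes the brightest stood. The 8 genes, the lists and the rules were chosen with earlier results of these data known. Named genes were the 8, the 3 most like each, and up to 4 of smallest p per list. Alternatives were leaving out arrays, the replicate number as a block, the Y-linked signal as a covariate, 2 renormalisations, a filter on dim probes, other eBayes and array weights, all probes, gene means and other thresholds.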

Additional observations from a re-analysis of the deposited data

How the results depend on the processing

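Under every alternative tried, 0 of the 8 genes passed a false discovery rate of 10%, and also at 5% or with a 2-fold difference. The count of the 8 with an unadjusted p under 0.05 was 0 with Y-linked signal as a covariate, with all probes tested together, with arrays centred on their medians and with a further quantile normalization. Leaving out 1 array gave 0 to 1. It was 0 without wildtype replicate 2 or 3 or transgenic replicate 1 or 2. The count over all probes, 7 as reported, was 0 with the covariate, with all probes tested together and with the replicate number as a block, 12 with array weights and 12 with trend and robust estimation. Leaving out 1 array gave 0 to 103, with 103 without wildtype replicate 1. Same-numbered animals of the groups had deviations that correlated at 0.230, 0.149 and 0.0231, so the number was not taken as a pairing. With the block Apoe kept its log2 difference of 0.19 and had an unadjusted p of 0.0345.

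Apoe stayed above 0 in every setting, between 0.06 and 0.26, and its lowest adjusted p was 0.289. App, Aplp1 and Sorl1 kept their signs. The other 4 differences, all near 0, changed sign. With arrays centred on their medians the log2 difference was -0.0083 for Bace1, -0.015 for Psen2, -0.0125 for Clu and -0.0029 for Mapt. With a further quantile normalization it was -0.0135 for Bace1, -0.0037 for Psen2, -0.0098 for Clu and -0.0186 for Mapt. For Clu it was -0.0929 with the covariate and -0.0973 without wildtype replicates 2 and 3. Leaving out 1 array gave -0.0096 to 0.0459 for Bace1, -0.0183 to 0.0228 for Psen2, -0.0265 to 0.0651 for Clu and -0.0012 to 0.043 for Mapt. The Bace1 to Psen2 ratio differed by -0.0157 to 0.0313 on leaving out 1 array, by -0.0046 without wildtype replicates 2 and 3 and by -0.0097 after a quantile normalization. The Mapt to App ratio differed by -0.0509 to 0.00137 on leaving out 1 array and by 0.00194 without wildtype replicates 2 and 3. The cause of these sign changes was not tested. The quantile normalization of the ratios and the alternatives for the correlation of Bace1 and Mapt were chosen after seeing the data, and the Clu to Apoe ratio then differed by -0.158. List medians moved by more than the spread between replicates in 19 of 303 refits. Counts of list genes with an unadjusted p under 0.05 moved by over 1.5 times in 111 of 269.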
